A study of Mus musculus with 6 samples.

Results

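Translation initiation factors were followed in mouse Eµ-Myc lymphoma cells with and without the miR-17~92 microRNA cluster. The members were all rows of the count table whose NCBI gene number carries a mouse protein-coding symbol beginning with Eif1 to Eif6. Kinases of eIF2 (Eif2ak genes), eIF4E-binding proteins (Eif4ebp genes) and eIF5A genes were left out. This gave 47 genes of 24885 rows. Of these, 42 had enough counts to be tested and 5 did not.

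The cells came from B-cell lymphomas driven by a Myc transgene under the Eµ enhancer. All 6 libraries were made from Cre-ERT2+;miR-17~92 fl/fl cells, so that both groups carry the floxed alleles and the inducible Cre. The 3 libraries named fl came from cells of floxed genotype. The 3 named del came from cells with the genotype del17-92, obtained by exposure to 250 nM 4-OHT (4-hydroxytamoxifen, the ligand that activates the Cre) and then subcloned. All were grown for 48 hours over irradiated Ink4a-null fibroblasts as a feeder layer. Loss of the cluster, drug exposure and subcloning cannot be told apart. Nothing in the labels tells whether the libraries of a group are separate cultures, so p-values reflect only how much these particular libraries vary, possibly for technical reasons.

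Initiation brings the initiator tRNA, the small ribosomal subunit and the mRNA together at a start codon. eIF2 carries the tRNA, and eIF2B recharges eIF2 with GTP. eIF3 is the large scaffold on the small subunit, and eIF1 and eIF1A keep it scanning until a start codon is found. The cap-binding protein eIF4E, the scaffold eIF4G and the RNA helicase eIF4A form eIF4F, which recruits mRNA. Many of these genes are textbook targets of MYC, and growth of Myc-driven lymphomas depends on their products.

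Total counts ran from 6554423 to 9580630 per fl library and from 2121796 to 3738720 per del library. Depth therefore differed between the groups, by 2.65-fold on average. The labelled lineage was checked with 10 B-lineage genes, which summed to 91.4 to 115.7 CPM (counts relative to the library's scaled total) in fl and 934 to 1136 CPM in del. All 9 tested were higher in del. Ms4a1, which encodes CD20, was not tested and had 2 counts in all of fl and 1 in all of del. Markers of other lineages also moved with the groups. The 8 myeloid genes summed to 32.8 to 40.7 CPM in fl and 2364 to 3176 CPM in del, with none at 0 in either group and 6 of 7 tested members higher in del and 1 lower. The 5 epithelial genes summed to 371 to 411 CPM in fl and 0.474 to 1.32 CPM in del. All 3 tested were lower in del. Krt8 had no count in del, and Cdh1 had none in either group. The 9 fibroblast genes, which the feeder layer would carry, summed to at most 3.37 CPM for fl and 12.8 CPM for del, with Lum and Thy1 at 0 in fl and Lum, Pdgfra and Postn at 0 in del. Single genes of these lists differed by orders of magnitude. Epcam, an epithelial adhesion gene, had 4163 counts in fl and 2 in del, Ebf1, a B-lineage transcription factor gene, 7 and 1034, and Cybb, a phagocyte oxidase gene, 50 and 13463. Every difference given here thus lies between cells that also differed in lineage genes. Whether the fl and del cells share one origin was not tested, and a difference in origin cannot be told apart from loss of the cluster. In such bulk samples fewer cells of a type and less RNA per cell cannot be told apart.

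Most initiation factors that changed were lower in del, while 6 were higher. Of the 42 tested members 22 fell, 6 rose and 14 did not pass an adjusted p of 0.05 (edgeR's quasi-likelihood test, Benjamini-Hochberg adjustment over all 10260 genes tested, the source of every adjusted p for a gene). Across all genes tested 65.1% were called, and the members' share of 66.7% lies near that background. By direction, 32.6% of all genes were lower and 32.5% were higher in del, against 52.4% and 14.3% of the members. The median log2 fold change (del minus fl) was -0.37 over the members and -0.0035 over all genes tested. At least 2-fold changes were called for 8 members downwards and 6 upwards, where the background was 15.9% and 21.4% of all genes. Values of the 3 fl and 3 del libraries did not overlap for 29 members (69.0%; 69.9% of all genes), 23 of them lower and 6 higher in del (35.7% and 34.2% of all genes). The lowest group mean among tested members was 16.2 CPM, for Eif4e3 in fl.

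**Figure D1:**
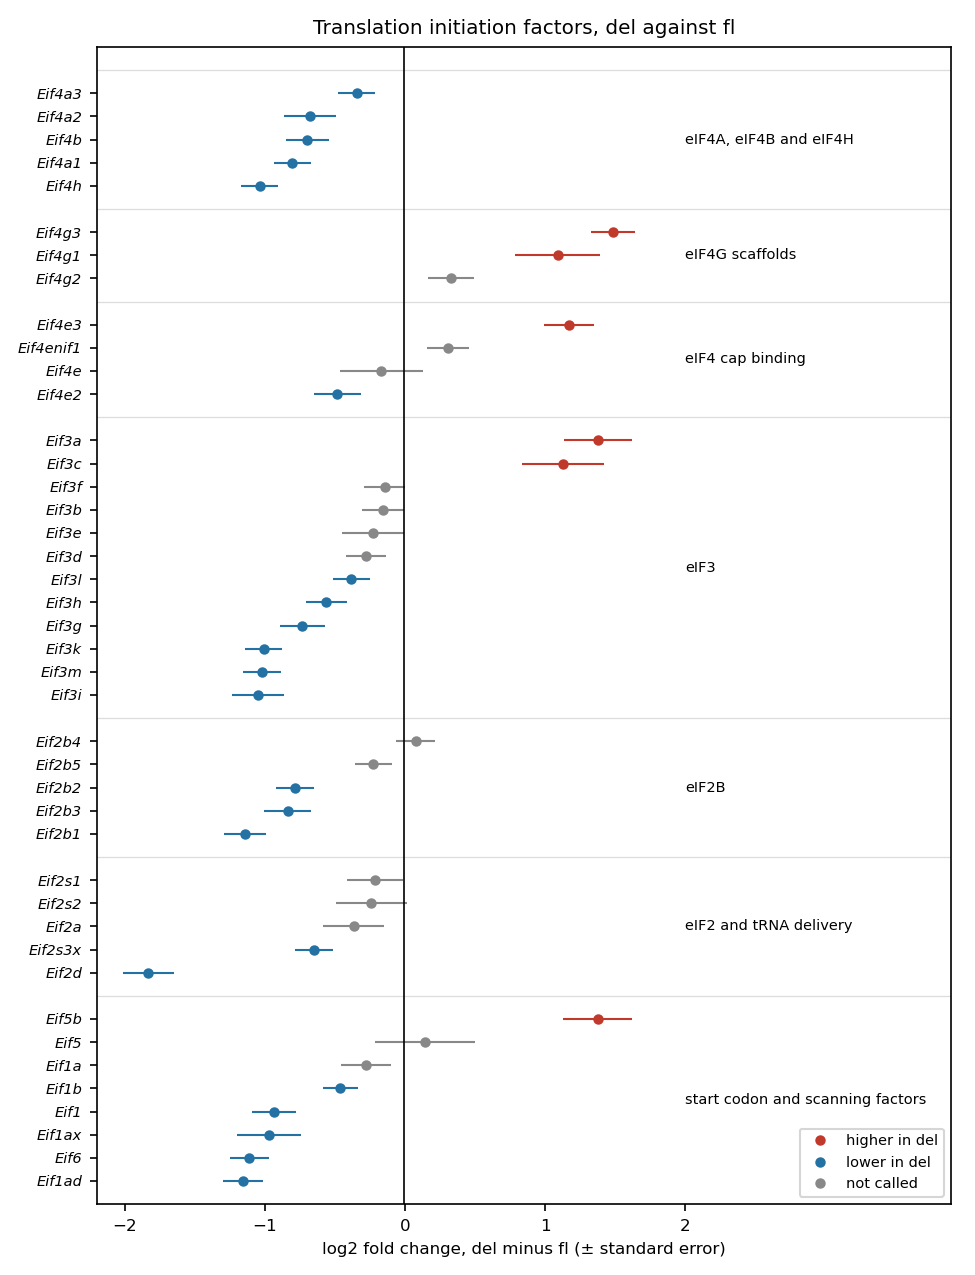
Log2 fold change (del minus fl, horizontal axis) with its standard error for the 42 tested members, grouped by role. Red points were called higher in del, blue points lower and grey points not called; the vertical line marks the median of all genes tested, and the 6 red points are Eif3a, Eif3c, Eif4e3, Eif4g1, Eif4g3 and Eif5b.

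The group named here start codon and scanning factors was formed by symbol (Eif1, Eif5 and Eif6 genes), not by function. Of its 8 members 5 fell and 1 rose. Eif5b, which encodes the GTPase that joins the ribosomal subunits, was at 1704, 1020.0 and 860.2 CPM in fl and 2946, 3598 and 2751 CPM in del. All del libraries were above all fl libraries, and fl replicate 1 was the highest of its group. The gene rose 2.59-fold (log2 fold change 1.37 ± 0.25, standard error, adjusted p = 0.0011), and the log2 fold change was 1.71 without fl replicate 1. Eif6, whose product keeps the large subunit from joining too early, went the other way. It was at 149.7, 159.7 and 177 CPM in fl and 79.3, 78.6 and 67.6 CPM in del, a log2 change of -1.11 ± 0.14 (adjusted p = 0.000118). Eif5, which encodes the GTPase activator of eIF2, varied within both groups, from 428 to 1006 CPM in fl and from 469.6 to 953 CPM in del, a log2 change of 0.14 ± 0.35 (adjusted p = 0.739).

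eIF1 and eIF1A guard the fidelity of start codon choice, and 3 of their 4 genes (Eif1, Eif1b and Eif1ax) fell. Eif1 was at 705, 593 and 709 CPM in fl and 409, 309.8 and 330.1 CPM in del, a log2 change of -0.94 ± 0.16 (adjusted p = 0.000667). Its paralogue Eif1b was at 117, 109 and 121 CPM in fl and 85.3, 88.1 and 79.2 CPM in del, a log2 change of -0.46 ± 0.13 (adjusted p = 0.0101), and did not pass once libraries were thinned to equal depth (-0.33, adjusted p = 0.0553). In neither gene did the groups overlap. The X-linked Eif1ax was at 339, 315 and 350.4 CPM in fl and 233, 162 and 117 CPM in del, a log2 fold change of -0.97 ± 0.23 (adjusted p = 0.00455). Its autosomal counterpart Eif1a was at 192, 179 and 169.9 CPM in fl and 187, 141 and 118 CPM in del, where the groups overlapped and no call was made (log2 fold change -0.28 ± 0.18, adjusted p = 0.197). Without del replicate 1, Eif1a was called lower (log2 fold change -0.48, adjusted p = 0.0288). Eif1ad, which encodes a protein with an eIF1A-like domain, was at 132, 149.6 and 139 CPM in fl and 71.4, 56.8 and 59.7 CPM in del, a log2 change of -1.16 ± 0.14 (adjusted p = 0.000103).

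Of the genes that deliver the initiator tRNA, 2 of 5 tested fell and none rose. The largest fall of any member was that of Eif2d, which encodes a factor able to deliver tRNA to the ribosome without eIF2. It was at 70.5, 85.8 and 83.3 CPM in fl and 26.6, 16.6 and 23.0 CPM in del. The groups lay far apart, and Eif2d fell 3.56-fold (log2 fold change -1.83 ± 0.18, adjusted p = 2.96e-05). Of the subunits of eIF2 itself, the gamma subunit gene Eif2s3x fell (log2 fold change -0.65 ± 0.14, adjusted p = 0.00234). The alpha subunit gene Eif2s1, whose product carries the stress-regulated phosphorylation site, stood at -0.21 ± 0.20 (adjusted p = 0.369). The beta subunit gene Eif2s2 was at 2922, 1811 and 1356 CPM in fl and 1562, 1915 and 1681 CPM in del. Its fl values spanned more than its del values, and no call was made (log2 fold change -0.24 ± 0.25, adjusted p = 0.426, and 0.11 without fl replicate 1). Eif2a, another factor that can deliver initiator tRNA, stood at -0.37 ± 0.22 (adjusted p = 0.165). It overlapped between the groups through del replicate 3, at 182 CPM against 133 and 94.3 CPM in the other del libraries, and was called lower without it (log2 fold change -0.63, adjusted p = 0.0154).

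The subunit genes of eIF2B, the exchange factor that is the target of the integrated stress response, were split. The regulatory alpha subunit gene Eif2b1 was at 59.5, 67.8 and 71.0 CPM in fl and 33.2, 30.3 and 26.2 CPM in del, a log2 change of -1.14 ± 0.15 (adjusted p = 0.000142). Eif2b2 and Eif2b3 fell as well, by 0.79 and 0.84 on the log2 scale. The catalytic epsilon subunit gene Eif2b5 was at 62.8, 72.1 and 66.9 CPM in fl and 58.7, 61.6 and 52.7 CPM in del. These groups did not overlap, yet the difference did not pass (log2 fold change -0.22 ± 0.13, adjusted p = 0.159). Eif2b4, for the delta subunit, stood at 0.08 ± 0.14 (adjusted p = 0.649). The complex is thus represented by 3 genes that fell and 2 without a call, over a range of log2 fold changes from -1.14 to 0.08.

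Subunit genes of eIF3 moved in both directions. Of 12 tested subunit genes 6 fell and 2 rose, and the 2 that rose encode the core scaffold subunits eIF3a and eIF3c. Eif3a was at 2446, 1589 and 1156 CPM in fl and 4810.0, 4366 and 4309 CPM in del. Every del library was above every fl library, again with fl replicate 1 highest in fl (log2 fold change 1.38 ± 0.24, adjusted p = 0.00097, and 1.70 without fl replicate 1). Eif3c was at 429.9, 349 and 249.5 CPM in fl and 501, 670.3 and 1076 CPM in del. The groups did not overlap, del replicate 3 lay well above the other del libraries, and the log2 fold change was 1.13 ± 0.30 (adjusted p = 0.00852), or 0.77 without that library (adjusted p = 0.0222).

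The eIF3 genes that fell have shorter annotated coding sequences than Eif3a and Eif3c, and so do those not called. Eif3i was at 512, 379 and 429.7 CPM in fl and 233, 239 and 168 CPM in del, a log2 change of -1.05 ± 0.19 (adjusted p = 0.000885). Eif3k was at 506, 478 and 466 CPM in fl and 239, 229 and 252 CPM in del, a log2 change of -1.01 ± 0.13 (adjusted p = 0.000144). Eif3m was at 344, 352 and 352 CPM in fl and 181, 180.5 and 155 CPM in del, a log2 change of -1.02 ± 0.13 (adjusted p = 0.000155). In none of these did the groups overlap. Eif3g, which encodes an RNA-binding subunit, fell by 0.73, Eif3h by 0.56 and Eif3l by 0.38 on the log2 scale. The call of Eif3l was lost in 5 of the 6 fits that left out a library, where adjusted p ran from 0.0411 to 0.0755. Eif3b (-0.16 ± 0.15), Eif3d (-0.28 ± 0.15), Eif3e (-0.23 ± 0.22) and Eif3f (-0.15 ± 0.15) were not called, with adjusted p-values of 0.374, 0.12, 0.391 and 0.403. Eif3j1 and Eif3j2, for the loosely bound j subunit, had no count in any library. A count of 0 over a whole group allows a level of up to 0.12 CPM for fl and 0.317 CPM for del. Of the 36-base words in the last 500 bases of the Eif3j2 transcript, 92.3% also occur in Eif3j1. None of those at the end of the longest Eif3j1 transcript occur in another gene. That transcript, however, runs past the RefSeq gene end at chr2:122053632, and words shared at the RefSeq end were not searched for. The treatment of reads shared by such copies is not known here.

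**Figure D2:**
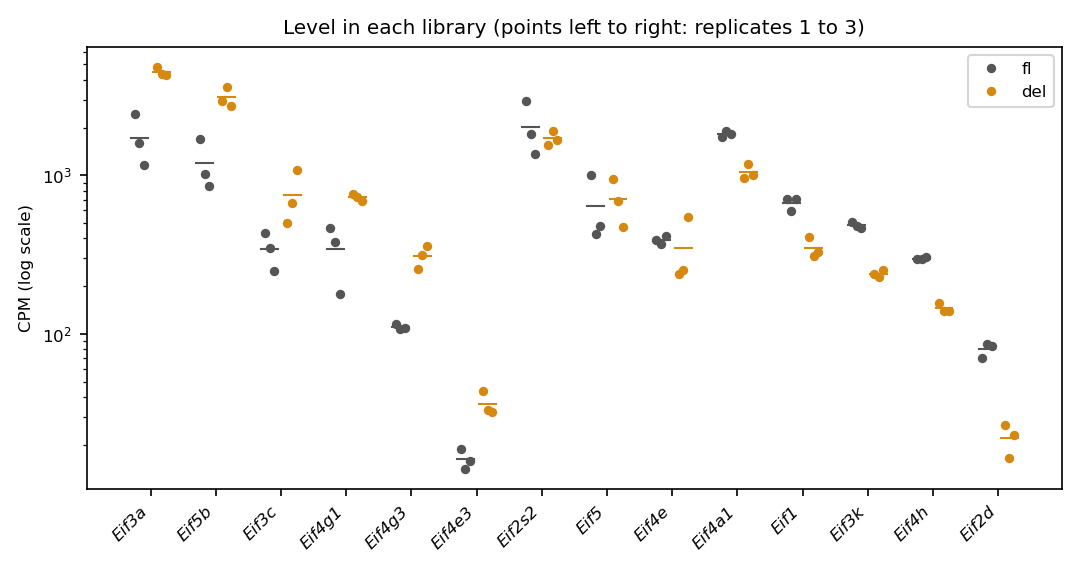
Level in CPM (vertical log axis) of 14 members in each of the 3 fl (grey) and 3 del (orange) libraries, with a bar at each group's mean. Eif3a, Eif5b, Eif3c, Eif4g1, Eif4g3 and Eif4e3 are higher in every del library, Eif4a1, Eif1, Eif3k, Eif4h and Eif2d lower, and Eif2s2, Eif5 and Eif4e overlap.

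Transcript counts for the scaffold and helicase parts of the cap-binding complex eIF4F moved in opposite directions. The eIF4G scaffolds bridge the cap, the helicase and eIF3, and 2 of their 3 genes rose. Eif4g1 was at 468, 377 and 178 CPM in fl and 763, 729 and 687 CPM in del. All del values were above all fl values, although fl spread 2.64-fold from its lowest to its highest library (log2 fold change 1.09 ± 0.30, adjusted p = 0.0112). Eif4g3 was at 116, 107 and 108 CPM in fl and 256, 312 and 360.1 CPM in del. It showed the largest rise of any member, with tight fl values (2.80-fold, log2 fold change 1.49 ± 0.16, adjusted p = 4.43e-05). Eif4g2, whose product lacks the eIF4E-binding part and serves cap-independent initiation, stood at 0.33 ± 0.16 (adjusted p = 0.104) and was called higher without fl replicate 3 (0.47, adjusted p = 0.0399).

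All 5 tested genes of the helicases and their cofactors fell. Eif4a1, the main eIF4A helicase gene, was at 1756, 1894 and 1817 CPM in fl and 958, 1172 and 998 CPM in del, a log2 change of -0.81 ± 0.13 (adjusted p = 0.000554). Its paralogue Eif4a2 was at 223, 208 and 230.04 CPM in fl and 179, 124 and 110.3 CPM in del, a log2 change of -0.68 ± 0.19 (adjusted p = 0.0103). Eif4h, which encodes a cofactor that stimulates eIF4A, was at 295, 295 and 303 CPM in fl and 157, 139 and 138 CPM in del, a log2 change of -1.04 ± 0.13 (adjusted p = 0.000115). The groups were apart in all of them. Eif4b, for the other RNA-binding cofactor, fell by 0.70 on the log2 scale (adjusted p = 0.00275). Eif4a3, whose product sits in the exon junction complex rather than in eIF4F, fell by 0.35 (adjusted p = 0.0431), a call lost in 5 of the 6 fits without a library (adjusted p from 0.0463 to 0.124). Eif4a3l1 had 7 counts in fl and none in del and was not tested.

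The cap-binding proteins were mixed. Eif4e, the limiting cap-binding factor in many cells, was at 390.4, 369 and 411 CPM in fl and 238, 254 and 548 CPM in del. Del replicates 1 and 2 were below every fl library and del replicate 3 above them, and no call was made (log2 fold change -0.17 ± 0.30, adjusted p = 0.636). Without del replicate 3, Eif4e was called lower (log2 fold change -0.67, adjusted p = 0.00426). Eif4e2, which encodes a cap-binding protein that represses translation, was at 246, 202 and 169.6 CPM in fl and 161, 130.3 and 149 CPM in del. Its groups were narrowly apart (log2 fold change -0.48 ± 0.17, adjusted p = 0.0303), and it did not pass on leaving out fl replicate 1, fl replicate 2, del replicate 2 or del replicate 3 (adjusted p up to 0.0946). Eif4e3 was at 18.7, 14.0 and 15.8 CPM in fl and 43.5, 33.2 and 32.2 CPM in del. It rose 2.25-fold (log2 fold change 1.17 ± 0.18, adjusted p = 0.000344). Eif4enif1, for the protein that carries eIF4E into the nucleus, stood at 0.31 ± 0.15 (adjusted p = 0.0965) and was called higher without fl replicate 1 (0.42, adjusted p = 0.0357). Eif4e1b, an oocyte form, had no count, and Eif2s3y, the Y-linked gamma subunit gene, had 1 count in each group.

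Because paralogues can stand in for each other, their balance was followed as the log2 ratio of their counts in each library. Reads come from transcript ends and are not divided by length, so only the change of a ratio between groups is read, not its size. Both members passed the count filter in 5 of 7 pairs. The ratio of Eif1a to Eif1ax was -0.82, -0.82 and -1.04 in fl and -0.32, -0.20 and 0.02 in del, higher in every del library by 0.73 on average. The ratio of Eif1 to Eif1b was 2.59, 2.44 and 2.55 in fl and 2.26, 1.81 and 2.06 in del, lower in every del library by 0.48 on average (difference -0.48). For each of these pairs the exact two-sided permutation p was 0.1, the smallest that 3 against 3 libraries allow, and 0.25 after Benjamini-Hochberg adjustment over the 5 pairs. The other 3 pairs overlapped between the groups. Mean differences were -0.10 for Eif4a1 over Eif4a2 (exact permutation p = 0.9), -0.27 for Eif4g1 over Eif4g3 (p = 0.6) and 0.19 for Eif4e over Eif4e2 (p = 0.8), each 0.9 after adjustment. The first of these turned to 0.16 without del replicate 1, and the last to -0.18 without del replicate 3.

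**Figure D3:**
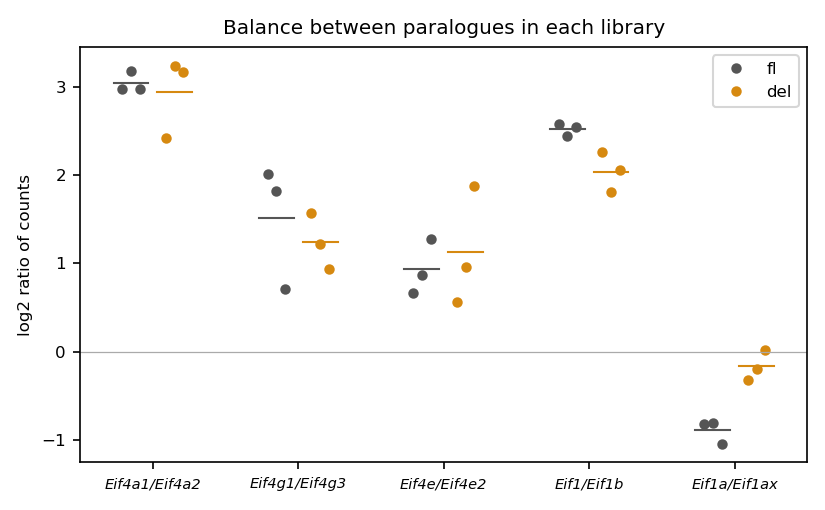
Log2 ratio of the counts of paralogous members (vertical axis) in each fl (grey) and del (orange) library, with a bar at each group's mean. The groups are apart for Eif1/Eif1b and Eif1a/Eif1ax and overlap for the other 3 pairs.

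Summed over all members, the level was 20526, 16133 and 15317 CPM in fl and 19412, 19869 and 18496 CPM in del, and the groups overlapped. This overlap rested on Eif3a and Eif5b, which both rose. Without them the sum was 16375, 13523 and 13301 CPM in fl and 11656, 11905 and 11435 CPM in del, lower in every del library. Both genes were left out with their rise known, which lowers the del sum against fl by construction. The lower sum is therefore a description and no test of the remaining members.

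Of the 6 rises 4 lay among members with the longest annotated transcripts, and 11 of the 22 falls among those with the shortest. Tested genes were ordered by annotated transcript length and divided into 5 groups of like size. In the group with the shortest transcripts (up to 1796 nucleotides), 11 of 12 members fell and none rose, with a median log2 fold change of -0.80. Over all 1963 genes of that group 1215 fell and 237 rose, with a median of -0.71. In the group with the longest transcripts (from 5083 nucleotides), 4 of 6 members rose, namely Eif3a, Eif4g1, Eif4g3 and Eif5b, and Eif1ax fell. There 1198 of 1963 genes rose and 210 fell, with a median of 0.84. In between, the members did not follow all genes. In the second longest group (3644 to 5081 nucleotides) none of 6 members rose and 3 fell, namely Eif2b3, Eif4b and Eif2s3x, with a median of -0.41, where 827 of 1963 genes rose and 389 fell, with a median of 0.32. In the middle group the medians were -0.38 for 8 members and -0.04 for all genes, and in the second shortest -0.26 for both. Across genes, which are not independent replicates, Spearman's rho between fold change and length was 0.50 over 42 members and 0.42 over 9814 genes. After length and GC trends had been taken out, the members' median was -0.26 and that of all genes 0.03. Log2 fold changes were then 0.83 for Eif3a, 0.49 for Eif5b, 0.72 for Eif4g1, 0.78 for Eif4g3, -1.79 for Eif2d and -1.69 for Eif1ax. Eif1b (0.25), Eif3g (0.028), Eif3h (0.033), Eif3l (0.046) and Eif4a3 (0.27) changed sign. What part transcript length played was not tested beyond this.

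**Figure D4:**
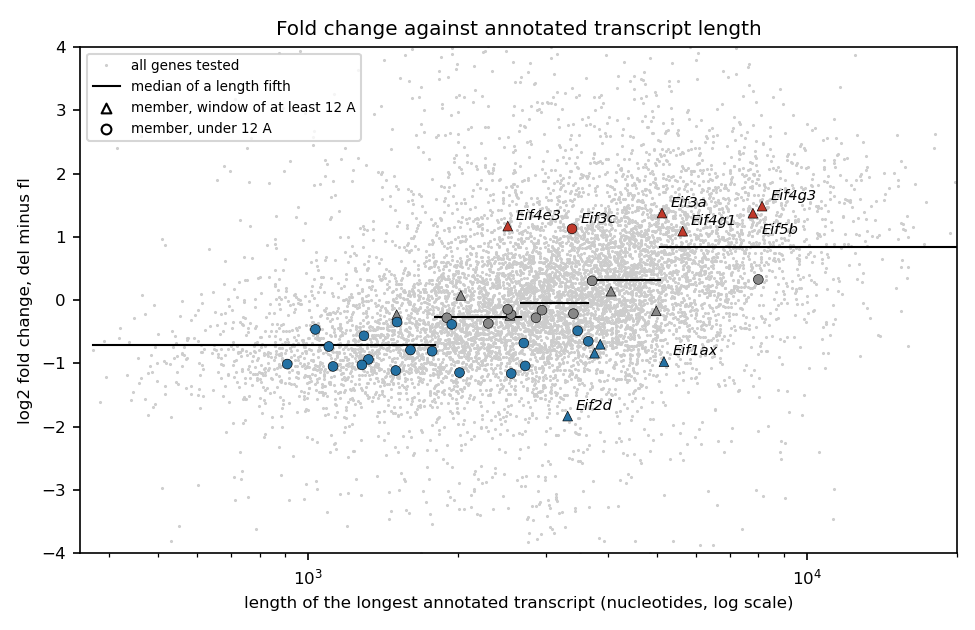
Log2 fold change (del minus fl, vertical axis) against the length of the longest annotated transcript (horizontal log axis) for all genes tested (light grey) and the 42 tested members, red where higher in del, blue where lower and grey where not called. Black lines are medians of all genes in 5 groups by length; 512 genes lie beyond the axes. Eif2d, Eif1ax, Eif2b3, Eif4b and Eif2s3x lie well below the lines and Eif4e3 and Eif3c above them.

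The libraries were primed with oligo-dT, and several members hold runs of A inside the transcript. For each gene the largest number of A in any 15-base window of its longest annotated transcript was counted, leaving out the last 100 bases. Windows of at least 12 A were present in 14 of 42 members (33.3%) and in 36.1% of all genes. Such windows inside the coding sequence are shown for Eif5b, Eif2s2, Eif5 and Eif4g1, whose fl libraries spread more than 1.5-fold. Eif4b (called lower) and Eif2b4 (not called) hold coding windows of 12 A as well, with fl spreads of 1.19-fold and 1.17-fold. In the sequences shown, the 15-base window with most A is in capitals.
Eif5b: aaaagcAAAAAGAAAAAGAAAgaaaag
Eif2s2: cttggcAACAAAAAAAAGAAAaagaag
Eif5: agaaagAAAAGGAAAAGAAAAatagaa
Eif4g1: gtttttGAAAAAAAGCAAAAAgagatg
The capitals of Eif5b lie in exon 6 at chr1:38022201-38022215 (plus strand), those of Eif2s2 in exon 4 at chr2:154884363-154884377 (minus strand), those of Eif5 in exon 7 at chr12:111541736-111541750 (plus strand) and those of Eif4g1 in exon 16 at chr16:20682770-20682784 (plus strand), in the GENCODE annotation of GRCm38. They stand 6331, 1930, 2940 and 2643 bases before the annotated transcript end. Eif3a has its richest window, of 13 A, in the 3′ untranslated region.

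Of the 14 members with such a window 5 rose and 4 fell, and of the 28 without one 1 (Eif3c) rose and 18 fell. Over all genes, 49.1% of those with a window rose and 18.7% fell, against 23.7% and 40.2% of those without. Genes with a window were also longer, with a median of 4381 against 2577 nucleotides. Spread within fl went with the windows too. In 7 members the highest fl library exceeded the lowest by more than 1.5-fold, namely Eif2s2, Eif3a, Eif3c, Eif3e, Eif4g1, Eif5 and Eif5b. In all 7 the highest was fl replicate 1, and 6 of them had a window of at least 12 A. The richest window held 13 A in Eif2s2, Eif3a and Eif5b, exactly 12 in Eif3e, Eif4g1 and Eif5, and 11 in Eif3c. The number 6 thus depends on the cut at 12 A. Among 2043 genes with such a spread fl replicate 1 was highest in 52.0%, and 51.3% had a window. Whether reads arose at these windows was not tested, since counts per gene do not show where reads lie. With the number of A added to length and GC content in the trend, the members' median was -0.22, and Eif3a stood at 0.72, Eif5b at 0.42, Eif4g1 at 0.55 and Eif4g3 at 0.59.

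The cluster itself acts through seed pairing, bases 2 to 8 of each microRNA, with sites in 3′ untranslated regions. Its mature microRNAs are shown from RefSeq (GRCm38.p6) with the seed in capitals, since they define the sites searched for. All 6 were found in the table, and they share 4 seeds.
miR-17-5p: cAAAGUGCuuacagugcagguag
miR-20a-5p: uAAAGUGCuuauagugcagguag
miR-18a-5p: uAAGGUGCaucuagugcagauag
miR-19a-3p: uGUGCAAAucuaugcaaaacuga
miR-19b-3p: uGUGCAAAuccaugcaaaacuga
miR-92a-3p: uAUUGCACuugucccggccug
A 7-base match to any of these seeds occurred in the longest annotated 3′ untranslated region of 7 of 42 tested members (16.7%), against 33.9% of 9734 genes. These regions were shorter in the members, with a median of 935 against 1193 bases. No member had a match to miR-92a (7.72% of all genes).

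Members with a match did not share a direction. Eif5b, which rose, has 2 matches to miR-17/20a, and Eif4e3, which rose, has 1 to miR-19a/b. Eif4h, which fell, has 1 match each to miR-17/20a, miR-18a and miR-19a/b. Eif1ax, which also fell, has 2 to miR-19a/b, the only matches followed by an A, which extends the pairing context to an 8-base site. The remaining members with a match were Eif4e2 and Eif4b, which fell, and Eif4g2, which was not called. In sum 2 of the 7 rose and 4 fell, with a median log2 fold change of -0.48, against -0.37 for the members without a match. Over all genes the medians were 0.33 with a match and -0.15 without, and genes with a match had longer 3′ untranslated regions (medians 2247 and 820 bases). The matches of Eif5b and Eif1ax are shown with the 7 bases in capitals.
Eif5b first match: caaatttgGCACTTTtttgaaaa
Eif5b second match: actatcatGCACTTTgcaaatac
Eif1ax first match: ctcctcggTTTGCACactctgcc
Eif1ax second match: cttggactTTTGCACactacctt
The Eif5b matches lie at chr1:38052938-38052944 and chr1:38053019-38053025, and those of Eif1ax at chrX:159387224-159387230 and chrX:159388960-159388966, all on the plus strand. A match is a description of the sequence and no measure of repression.

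MYC and its partner bind the E-box CACGTG, which reads the same on both strands. The RefSeq promoter table (GRCm38.p6) holds windows from 250 bases before to 50 after the start for 37 of the 47 members. The motif was present in 8 of them (21.6%) and in 8.91% of 17492 protein-coding genes with such a window. That background holds all such genes, tested here or not, and the share among tested genes was not counted. The 8 members did not move together. Eif1b, Eif3k, Eif4a1 and Eif4h fell, Eif3a and Eif4g1 rose, and Eif3f and Eif4e were not called. Myc itself had a log2 fold change of -0.15 ± 0.15 (adjusted p = 0.399). Both Eif4e and Eif4g1 hold 2 copies. They are shown beside those of Eif3a and Eif4a1, members that moved in opposite directions, with the motif in capitals.
Eif4e upstream: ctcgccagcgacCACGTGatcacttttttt
Eif4e downstream: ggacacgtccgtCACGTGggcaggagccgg
Eif4g1 upstream: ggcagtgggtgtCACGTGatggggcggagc
Eif4g1 downstream: ctctgcgccggtCACGTGgggcgctggctg
Eif3a: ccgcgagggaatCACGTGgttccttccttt
Eif4a1: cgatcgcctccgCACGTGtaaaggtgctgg
In order, these stretches lie at chr3:138527028-138527057 and chr3:138527192-138527221 (plus strand), chr16:20672661-20672690 and chr16:20672730-20672759 (plus strand), chr19:60790654-60790683 (minus strand) and chr11:69672595-69672624 (minus strand).

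Regulators and cofactors of initiation were described from a list of 38 genes, of which 37 were tested. The background for this list and the next was 32.5% of all genes tested higher in del, 32.6% lower and 65.1% called either way. The regulators were higher more often than the factors themselves, with 16 higher and 8 lower in del and a median of 0.42. This difference from the members was not tested. Gigyf2, the partner of the repressive cap-binding protein, was the largest rise (log2 fold change 2.06 ± 0.32), followed by the scanning helicase gene Dhx29 (1.59 ± 0.18) and Cyfip1, for an eIF4E-binding protein (1.57 ± 0.20). The largest falls were those of Eif4ebp1, the eIF4E inhibitor gene (-1.78 ± 0.14), Paip2b, for an inhibitor of poly(A)-binding protein (-1.27 ± 0.19), and Ppp1ca, a phosphatase catalytic subunit gene (-0.95 ± 0.13). Elongation, termination and recycling factors were a list of 20 genes with 17 tested, of which 12 fell and 1 rose, with a median of -0.71. Eef1e1 fell by 1.66, Dohh, for an enzyme that modifies eIF5A, by 1.58 and Eif5a, the elongation factor gene, by 1.20 on the log2 scale. Not every gene of the list encodes such a factor itself, as with Dohh. The termination factor gene Gspt1 was the 1 that rose (0.70 ± 0.14). The medians of both lists were smaller in size once length and GC trends were removed, as given at the end.

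Some members share 3′ sequence with other annotated genes, which leaves their counts uncertain. Of the 36-base words in the last 500 bases of the longest transcript, 54.4% for Eif3m, 43.0% for Eif4a3, 36.1% for Eif3e and 29.5% for Eif3h occur in transcripts of another gene. For the other tested members the share was at most 6.24%.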

How the data were processed

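Libraries were strand-specific and made from transcript 3′ ends with a barcoded oligo-dT primer, per the labels' protocols. The authors deposited whole-number counts per gene; STAR, HTSeq and mm10 are named in the submitters' processing notes, with versions not given in the sources used here. Of 24885 rows, 23969 of 24052 gene numbers were matched to symbols. Genes passing edgeR's filterByExpr (10260) were scaled by TMM (factors 0.912 to 1.04) and tested del against fl with edgeR 4.0.16 in R 4.3.3 (robust quasi-likelihood test, Benjamini-Hochberg threshold 0.05), after a test on simulated data. The simulated data held few changed genes, balanced in direction, so that test does not cover data where most genes differ. CPM used TMM-scaled library sizes. The floor for a count of 0 is 3 counts over a group and covers counting error only. All tested members are named. Values per library are given for called changes of at least 2-fold, the highest member of each role group and paralogue pairs; of other lists the 3 largest changes each way are given. Members and lists were chosen with earlier results of these data known. Transcripts came from GENCODE vM21. Alternatives were DESeq2 1.42.0, other scalings and filters, thinning to equal depth, a replicate block, leaving out each library, and removal of length, GC and A-window trends.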

Additional observations from a re-analysis of the deposited data

How the results depend on the processing

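With each library left out in turn, 6 to 7 members were higher and 19 to 22 lower in del; under the other fits 6 were higher and 19 to 23 lower. All 42 members kept their call with DESeq2, with its size factors, without a filter and with a stricter filter. Upper-quartile scaling moved the median of all genes to -0.13, with 2965 genes higher and 3767 lower. Under it the medians were -0.50 for the members and -0.84 for the elongation, termination and recycling list. With the length and GC trend removed, medians were -0.26 for the members and 0.18 for the regulators. For the elongation, termination and recycling list the median was then -0.37. With the A-window trend removed too, an alternative chosen after seeing the data, the members' median was -0.22. With length and GC removed the log2 fold changes of 27 of 42 members moved by more than their standard error, 5 called members changed sign and 10 did neither; with A-windows too these numbers were 26, 5 and 11. Those that changed sign were Eif1b (0.25 with length and GC removed, 0.22 with A-windows too), Eif3g (0.028 and 0.095), Eif3h (0.033 and 0.068), Eif3l (0.046 and 0.22) and Eif4a3 (0.27 and 0.37). Leaving out 1 library gave -0.25 to 0.16 for the log2 ratio of Eif4a1 to Eif4a2 and -0.18 to 0.48 for that of Eif4e to Eif4e2 (del minus fl). The cause of these shifts was not tested. Same-numbered libraries did not deviate together more than others did (correlations 0.083, -0.039 and -0.020, against -0.145 to 0.167 for differently numbered ones). Such values cannot show whether the numbers pair libraries by culture or preparation, which is not known. With a replicate block 6 members were higher and 20 lower, and the calls of Eif3l (adjusted p = 0.066) and Eif4a3 (adjusted p = 0.0699) were lost. Thinning to equal depth left 19 members lower, without Eif1b, Eif3l (adjusted p = 0.0654) and Eif4a3 (adjusted p = 0.0701). Depth in del limits low genes.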
